A study of Mus musculus with 14 samples.

Results

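The motile cilia genes described here were chosen by name, as every symbol of the brain gene table that begins with *Dnah*, *Cfap* or *Rsph* followed by a digit, together with *Foxj1*. The rule takes 61 of the 26528 genes of the brain table and 60 of the 28316 genes of the retina table, in which *Cfap73* is not listed. Of the 73 gene names that match the rule in GENCODE vM39, 12 are not in the brain table under that name. The member *Dnah2os* is a long noncoding RNA on the opposite strand of *Dnah2*, and the other members are protein-coding.

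A motile cilium bends because dynein motors fixed to its outer doublet microtubules walk along the neighbouring doublet. The *Dnah* genes encode the heavy chains of the outer and inner dynein arms, the *Rsph* genes encode proteins of the radial spokes that join the doublets to the central pair, many *Cfap* genes encode proteins of the central pair, the spokes or the lumen of the doublets, and *Foxj1* encodes a transcription factor of the program that builds motile cilia. In the brain such cilia stand on ependymal cells along the ventricles, whereas the outer segment of a photoreceptor is a modified cilium that does not beat.

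The values are unique molecular identifiers (UMIs), which count each captured transcript once, from nuclei captured with PIPseq. The brain libraries, 1 control and 1 mutant, were made from vascular fragments of 2 brains each, and the retina libraries, 1 control and 11 mutant, from whole retinas of a number of mice that the sources used here do not give. The mutants, VEcadCreER;Tgfbr1CKO/- in the labels and called CKO here, have 1 *Tgfbr1* allele missing in every cell and the other removed in endothelial cells (ECs), where the *Cdh5* promoter drives a Cre that 4-hydroxytamoxifen activated on postnatal days (P) 3 to 5. The labels call the control WT and do not say whether it received 4-hydroxytamoxifen. They call the mice young adults, whereas the methods of the paper give P14. Where it counts choroidal vessel growth, the paper calls its control retinas phenotypically WT, typically *Cdh5CreER;Tgfbr1CKO/+* or *Cdh5CreER;Tgfbr2CKO/+*. The sources used here do not give the alleles of the sequenced controls.

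In the brain, 16649 control nuclei gave 49798325 UMIs (median depth 1541) and 14675 CKO nuclei gave 31033373 (median depth 1395). Levels are given as CPM, in which the UMIs of a gene are scaled by the total UMIs of the nuclei with the same label in the same library. With 1 brain library per genotype there was no replicate and no test. Intervals are 95% intervals from the counts alone (exact Poisson for a level, exact binomial for a share and exact conditional binomial for a ratio), and a gap beyond them tells apart these 2 libraries, not the genotypes.

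Several libraries stood apart in the number of nuclei, batch, kit or sex. CKO retina library 4 held 104 nuclei, of which 0 were rods and 1 was a cone, so the rods and cones of 11 libraries (1 control and 10 CKO) are described. By the methods, clusters with multiple nuclei were removed by hand from CKO 4 and 5 alone. By the deposited metadata the control and CKO 1 to 3 form batch 1, CKO 4 and 5 batch 2 and CKO 6 to 11 batch 3, and CKO 8 to 11 were made with the v5.0 kit and the others with v4.0 PLUS. *Cfap20dc*, *Cfap91* and *Cfap418* had 695, 111 and 2497 UMIs in batch 1 and 0 in batch 3, so these 3 members have no measured level in CKO 6 to 11. Each brain library had 2 nuclei whose barcode also occurs in the other library, and each retina library had between 0 and 4 such nuclei. The X-inactivation transcript *Xist* was at 1963 CPM in control brain nuclei against 1.29 in CKO brain nuclei, and the Y-linked *Uty* at 64.5 against 133 CPM, so the sex of the pooled mice also differs. In the retina *Xist* was at 6779 CPM in the control, at 5577 to 6823 CPM in CKO 1, 2, 4 and 7 and at or below 12.9 CPM in the 7 other CKO libraries, and *Cfap47* is a member on the X chromosome.

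*Tgfbr1*, the targeted gene, was at 69.1 CPM in control and 62.9 in CKO brain ECs, and at 89.0 CPM in the control retina as a whole. The CKO retina libraries had 71.4 to 87.0 CPM apart from library 4, where 33 UMIs gave 365 CPM. The control retina thus lay above the 10 other CKO libraries, and over all brain nuclei the gene was at 36.5 CPM in the control and 26.2 CPM in the CKO library. Whether transcripts that lack the deleted part are counted was not tested, and these values are not used as a check of the deletion.

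Of the 21 deposited cell type labels of brain nuclei, CP_6 had the highest summed level of the members in both libraries. The 61 members together were at 31107 CPM (30917 to 31298) in the 1092 control nuclei of CP_6 and at 31290 CPM (30994 to 31588) in its 723 CKO nuclei, from 102678 and 42767 UMIs. Members thus made up 3.11% (control) and 3.13% (CKO) of the UMIs of CP_6. As a mean over nuclei of each nucleus's CPM the sum was instead 47021 and 47007 CPM, so its level depends on how nuclei are weighted. By summed UMIs CP_8 came next, at 4866 CPM (4776 to 4957) and 6248 CPM (6066 to 6434) in 902 and 595 nuclei. Every other label was at or below 884 CPM in the control and 1023 CPM in CKO nuclei. ECs, the cells from which *Tgfbr1* was removed, were at 296 CPM (282 to 311) and 347 CPM (334 to 362). Members went both ways there, as *Cfap20* with 268 and 504 UMIs and *Dnah12* with 26 and 11. The lowest label, Glut_5, was at 40.8 and 45.7 CPM.

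The sources used here do not spell out the abbreviation CP, and both labels that begin with it were set against fixed marker lists. Of 10 ependymal markers, of which *Foxj1* is also a member, 9 were highest in CP_6 in both libraries, and the exception, *Pltp*, was highest in ECs. Their sum was 7934 CPM in control and 7774 CPM in CKO nuclei of CP_6, with *Tmem212* the most abundant at 1629 and 1620 CPM. In CP_8 the same list was at 266 and 337 CPM, with 5 and 6 UMIs of *Tmem212*, 1 and 0 of *Ccdc153* and 2 and 0 of *Rarres2*. The 10 markers of choroid plexus epithelium were instead all highest in CP_8 in both libraries, at a sum of 57463 and 55966 CPM, of which *Ttr* made up 40364 and 38980. The label CP_6 is therefore kept here as a name only, for nuclei with the highest levels of ependymal markers such as *Tmem212*, *Hydin* and *Spag17*.

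The lists of other cell types were also present in CP_6, each at a lower sum than the ependymal list, although *Ttr* in the control was above every ependymal marker. Choroid plexus markers were at 3811 CPM there in control and 1875 CPM in CKO nuclei, with a ratio (CKO over control) of 0.492 (0.471 to 0.513), with *Ttr* at 2838 and 1188 CPM. Oligodendrocyte markers were at 322 and 487 CPM (ratio 1.51, 1.37 to 1.67), with *Mbp* the most abundant. Tanycyte markers were at 110 and 115 CPM, with 3 and 0 UMIs of *Rax*. Astrocyte markers were at 2004 and 2055 CPM, and neuron markers at 851 and 924 CPM (ratio 1.09, 1.01 to 1.16). The choroid plexus, oligodendrocyte and neuron lists thus differed beyond counting error between the CP_6 nuclei of the libraries, and their part in the values of the members was not tested.

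Counted member by member, 58 of the 61 had at least 100 UMIs over the brain libraries. Of these, 52 were highest in CP_6 in both libraries, and over all genes with that many UMIs 1221 of 16314 (7.48%) were. The labels were drawn from all genes, members included, so this count is a description of the label. A further 3 members had fewer UMIs, with 63 of *Rsph6a*, 36 of *Dnah2os* and 5 of *Cfap97d1*. UMIs in CP_6 were present in both libraries for 59 members, and *Dnah7b* and *Cfap97* were the members with UMIs in all 21 labels.

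**Figure D1:**
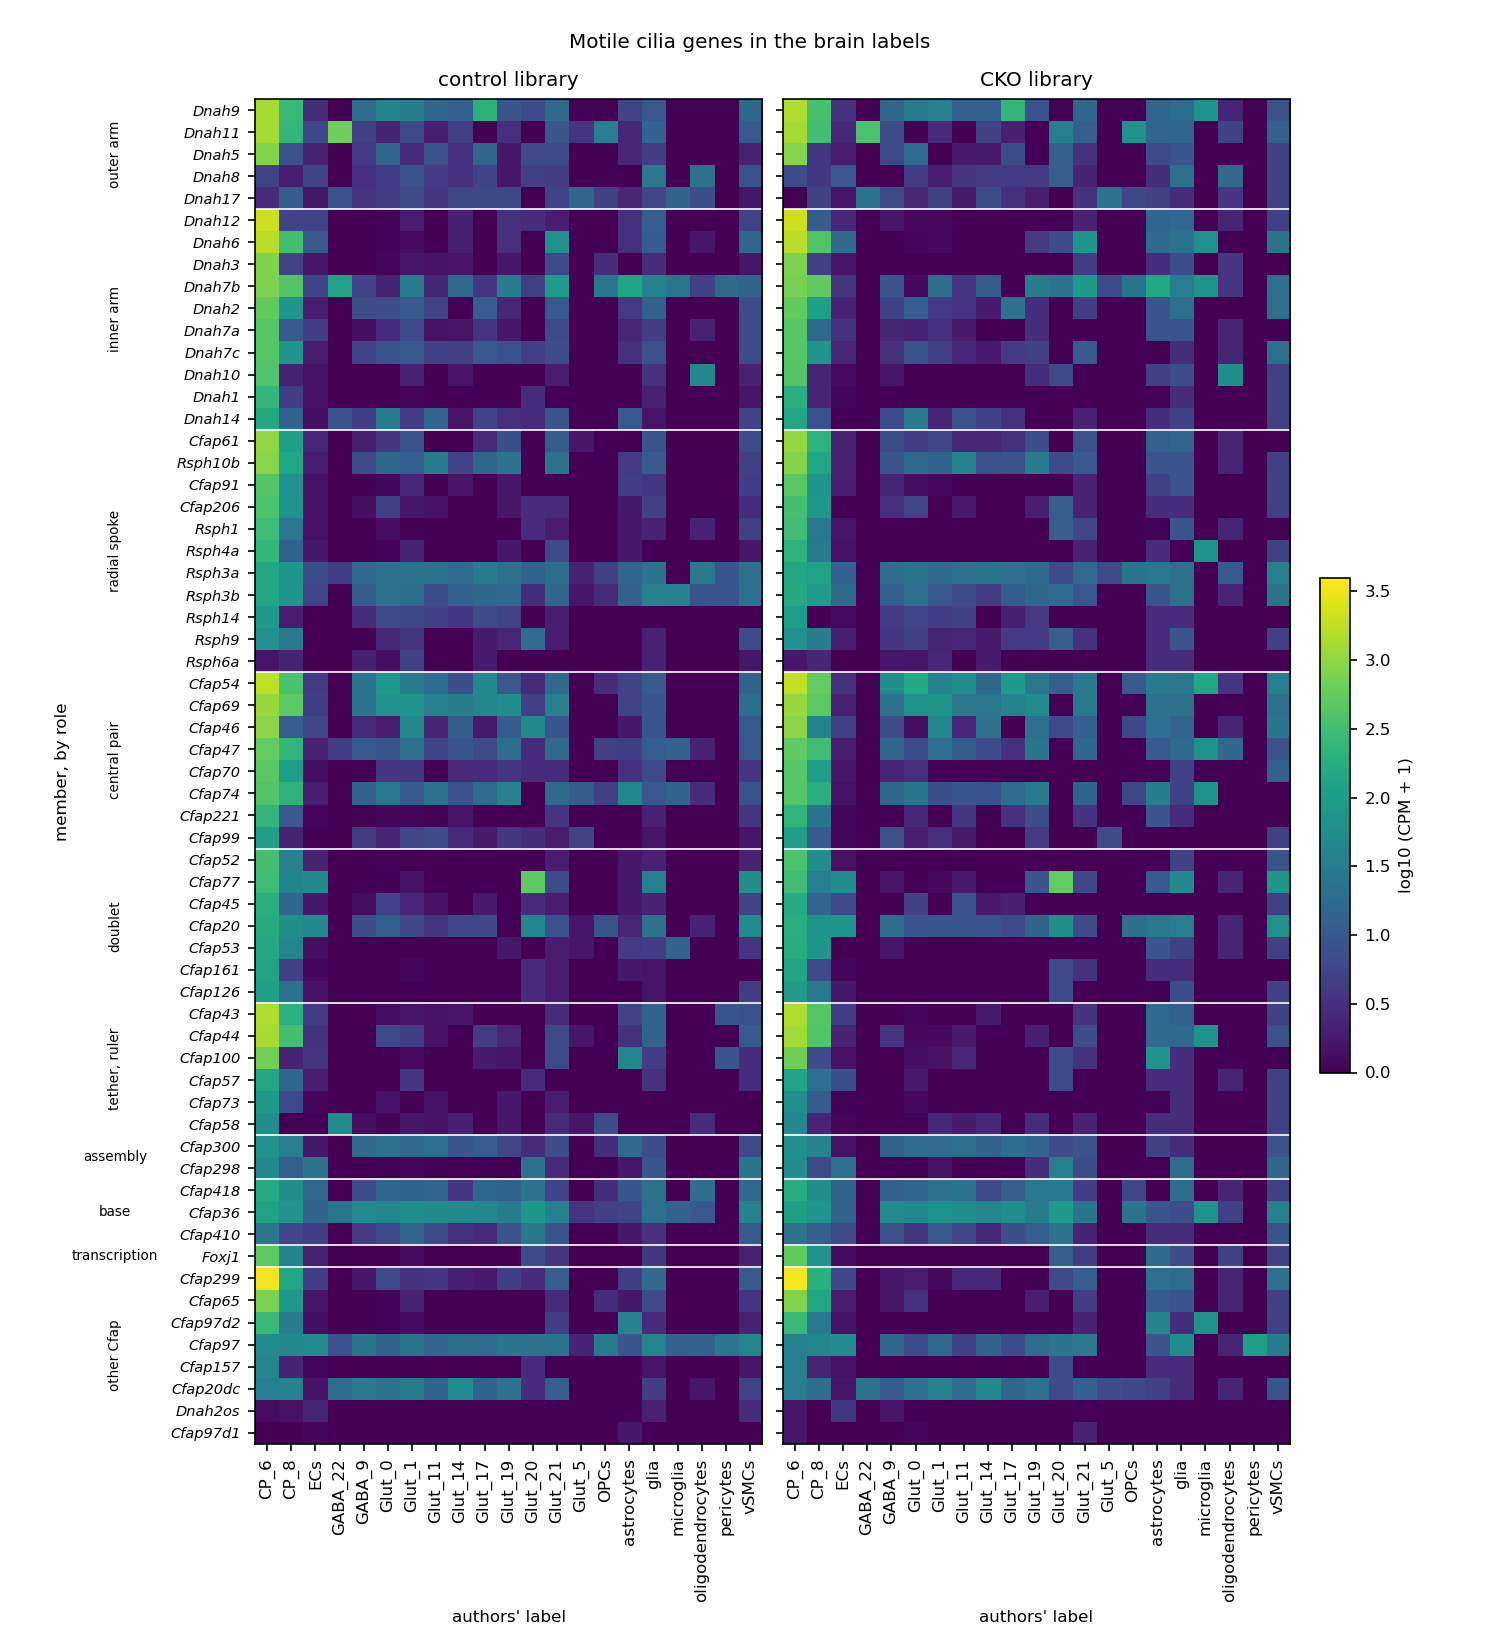
Level of each of the 61 members, grouped by role on the vertical axis, in each of the 21 brain labels on the horizontal axis, as log10 of CPM plus 1, in the control and the CKO library. The CP_6 column is brightest for 52 of the 58 members with at least 100 UMIs, and CP_8 follows at a lower level.

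The 6 exceptions to the place of CP_6 were spread over several labels. *Cfap77*, which encodes a protein inside the doublet microtubules, was highest in Glut_20, at 510.5 and 545 CPM against 298 and 309 CPM in CP_6. *Cfap20dc* was highest in Glut_14, at 56.0 and 51.2 CPM against 34.8 and 35.1 CPM in CP_6. *Dnah8*, an outer arm heavy chain known from sperm, was highest in glia at 25.4 and 20.0 CPM, and had 15 and 8 UMIs in CP_6. *Dnah17*, likewise an outer arm chain of sperm, was highest in Glut_5 at 14.4 and 22.9 CPM and had 6 and 0 UMIs in CP_6. Its CKO value comes from a label with 8 member UMIs in all. *Cfap97* was highest in ECs in the control, at 54.5 CPM (316 UMIs) against 53.9 CPM in CP_6. In the CKO library it was at 54.1 CPM in ECs (371 UMIs), 60.1 CPM in glia and 37.3 CPM in CP_6, and its highest value, in pericytes, rests on 1 UMI in 22 nuclei. *Cfap410* was highest in CP_6 of the control, at 24.8 CPM, and in Glut_20 of the CKO library, at 22.5 CPM. In CP_6 of the CKO library it was at 21.2 CPM (14.2 to 30.5) from 29 UMIs, an interval that includes the Glut_20 value.

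A few members had a second place outside CP_6 and CP_8. *Dnah11*, an outer arm heavy chain, was at 639 CPM in GABA_22 of the control and 380.4 CPM in the 53 GABA_22 nuclei of the CKO library, and it made up 72.3% and 89.5% of the member UMIs of that label. Glut_17 held *Dnah9*, another outer arm chain, at 203.5 and 232 CPM. Astrocytes held the inner arm chain *Dnah7b* at 131 and 152 CPM and *Cfap100*, which encodes a regulator of inner arm dynein, at 43.3 and 65.3 CPM. Oligodendrocytes held *Dnah10*, an inner arm chain, at 48.4 and 59.0 CPM. Each of these labels was led by another member, and none of them came near CP_6 in the sum.

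The share of a member's level that lay in CP_6 can be given as its CPM there over the sum of its CPM in the 21 labels, averaged over both libraries. It was 98.1% for *Dnah12*, 97.7% for *Dnah3* and 96.5% for *Dnah1*, which all encode inner arm chains. For the outer arm chain *Dnah5* it was 92.6%, and for *Foxj1* 86.1%. At the low end it was 43.1% for *Dnah7b*, 33.3% for *Cfap20*, 14.3% for *Cfap36*, 9.23% for *Cfap97*, 5.74% for *Dnah8* and 0.967% for *Dnah17*. *Cfap36* encodes a protein that binds ARL3, a small GTPase of many kinds of cilia, and *Cfap20* encodes a protein of the inner junction of the doublet.

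The outer arm heavy chains had a summed level of 3512 CPM in control and 3657 CPM in CKO nuclei of CP_6. *Dnah9* was at 1347 CPM (1307 to 1387) and 1460 CPM (1397 to 1526), *Dnah11* at 1312 and 1313 CPM, and *Dnah5* at 846 and 878 CPM. These 3 chains carried nearly all outer arm UMIs of CP_6, as *Dnah8* was at 4.54 and 5.85 CPM and *Dnah17* at 1.82 CPM in the control, with a count of 0 in the CKO library, which allows up to 2.70 CPM.

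The 10 inner arm heavy chains summed to 7516 and 7487 CPM. *Dnah12* was at 2117 CPM (2067 to 2167) and 2108 CPM (2032 to 2186), *Dnah6* at 1608 and 1667 CPM, *Dnah3* at 788 and 781 CPM, and *Dnah2* at 519 and 530.4 CPM. Of the others *Dnah1* was at 238 and 189 CPM and *Dnah14* at 152 and 143 CPM. The 3 genes *Dnah7a*, *Dnah7b* and *Dnah7c* on chromosome 1 have transcripts that share between 45.0% and 52.8% of their 31-base words, so the division of UMIs among them is uncertain. They were at 454, 787 and 448 CPM in the control and 459, 726 and 450.0 CPM in the CKO library.

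Radial spoke members summed to 3693 and 3719 CPM. *Cfap61*, which encodes a protein of the base of the third spoke, was at 998 and 1064 CPM. *Rsph10b* was at 912 and 850.2 CPM, and the spoke head genes *Rsph4a* and *Rsph1* were at 238 and 304 CPM in the control and 214 and 316 CPM in the CKO library. Among spoke members with at least 20 UMIs in CP_6 the ratio was highest for *Rsph14* (interval 0.971 to 1.47), from 84.8 and 102 CPM, and lowest for *Cfap206* (0.879), whose interval lay below 1. *Rsph6a*, known from sperm, had 63 UMIs in the whole brain data. *Rsph3a* and *Rsph3b* share 81.8% and 73.8% of their words with each other and are uncertain one by one.

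Central pair members summed to 5638 and 5622 CPM. *Cfap54*, a protein of a projection of the central pair, was at 1827 CPM (1781 to 1873) and 1835 CPM (1764 to 1908), *Cfap69* at 1092 and 1096 CPM and *Cfap46* at 952 and 932 CPM. *Cfap47*, *Cfap70* and *Cfap74*, from the same structure, were at 538, 469 and 417 CPM in the control, and *Cfap221* and *Cfap99* at 232 and 111 CPM. The summed ratio of the 8 genes was 0.997 (0.971 to 1.02).

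The proteins inside the doublets summed to 1377 and 1431 CPM. *Cfap52* was at 337 and 375 CPM, *Cfap45* at 182 and 165 CPM and *Cfap126* at 114 and 94.4 CPM. The tether and ruler group, which holds inner arms in place, was higher, at 3772 and 3638 CPM. Within it the tether genes *Cfap43* and *Cfap44* were at 1476 and 1325 CPM in the control and 1475 and 1269 CPM in the CKO library. *Cfap100* was at 683 and 649 CPM and *Cfap73*, which works with it, at 84.2 and 62.9 CPM. Arm assembly factors (*Cfap298* and *Cfap300*) summed to 122 and 121 CPM and the members of the ciliary base (*Cfap36*, *Cfap410* and *Cfap418*) to 306 and 304 CPM.

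Among the members without an assigned structure, *Cfap299* had the highest CPM, 3479 CPM in the control and 3606 CPM in the CKO library, and it supplied 11.2% and 11.5% of the member UMIs of CP_6. *Foxj1*, the transcription factor, was at 511 CPM (487 to 536) and 518 CPM (481 to 558), a ratio of 1.01 (0.928 to 1.11). In CP_8 it was at 41.4 and 65.7 CPM and in ECs at 1.21 and 0.292 CPM. Nuclear transcripts carry introns, and a long gene can give more UMIs: over the members, Spearman's correlation between CPM in CP_6 and the span of the gene was 0.581, a description across genes of 1 library. Per kilobase of span, *Foxj1* was at 109 CPM over 4.70 kb, *Cfap100* at 26.3, *Cfap65* at 23.9, *Rsph4a* at 19.9 and *Cfap299* at 7.49 CPM over 473 kb (means of both libraries). On that scale *Foxj1* led the members and *Cfap299* did not.

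Between the genotypes, the summed members of CP_6 had a CKO over control ratio of 1.01 (0.995 to 1.02). The interval includes 1, and the bounds limit a difference between these libraries in the sum to a few percent by counting error alone. At a threshold of 2-fold in either direction, 0 of the 57 members with at least 20 UMIs in CP_6 were past it, whereas 1176 of 12724 genes (9.24%) were, 486 of them higher and 690 lower in the CKO library. The members' log2 ratios ran from -0.53 to 0.37 with a median of 0.01, beside a median of 0.01 over all genes. Members had many UMIs and a low count alone can pass 2-fold, so the shares also depend on the minimum: with at least 50 UMIs, 0 of 56 members and 407 of 9684 genes (4.20%) were past 2-fold.

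Of the 57 members, 4 had an interval that lay above 1 and 6 an interval below 1. Those above were *Cfap52* (1.11, 1.00 to 1.24), *Dnah9* (1.08, 1.03 to 1.14), *Cfap61* (1.07) and *Cfap299* (1.04). Those below were *Cfap97* (0.692, 0.497 to 0.949), *Cfap73* (0.747, 0.580 to 0.955), *Dnah1* (0.795, 0.688 to 0.916), *Cfap206* (0.879), *Dnah7b* (0.922) and *Rsph10b* (0.932). In a count added after seeing the data, 1380 of all 12724 genes had an interval above 1 and 1201 one below, so the share that left out 1 was 17.5% of members and 20.3% of genes. With 57 intervals at 95%, some miss 1 by counting error, and no library was replicated. By role, the ratios ran from 0.964 (0.933 to 0.997) for the tether and ruler group to 1.04 (1.01 to 1.08) for the outer arm. TMM scaling lowered every ratio of CP_6 by a factor of 1.03 and moved the summed ratio to 0.976. Under it, an alternative for these counts chosen after seeing the data, 0 members had an interval above 1 and 10 had one below, beside 1103 and 1478 of all genes, so none of the 4 higher values holds under both scalings.

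**Figure D2:**
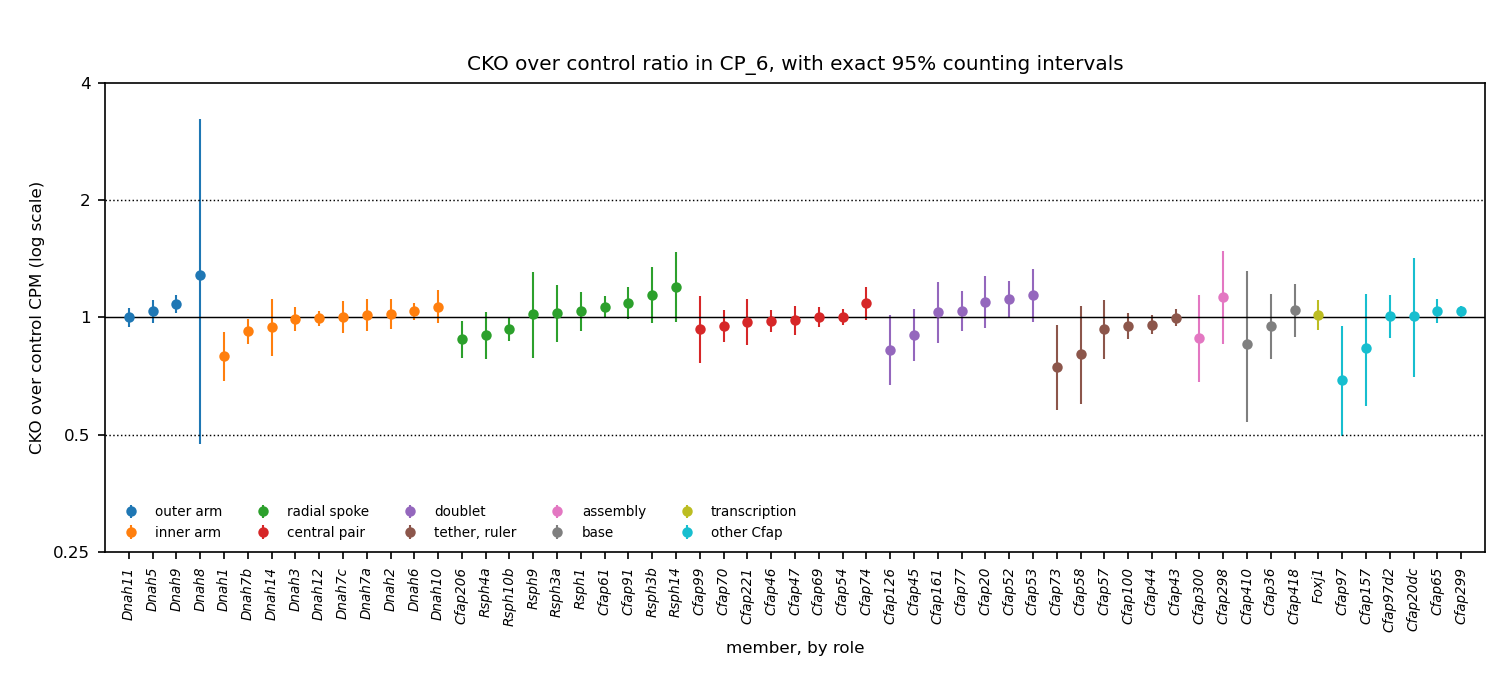
CKO over control ratio of CPM in CP_6 (vertical axis, log scale) for the 57 members with at least 20 UMIs, ordered by role, with exact conditional binomial 95% intervals from the counts; dotted lines mark 2-fold. All 57 points lie between the dotted lines, and the lowest is *Cfap97* at 0.692.

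Depth differed between the libraries, with a median of 1307 UMIs per nucleus in control and 869 in CKO nuclei of CP_6, and a median of 62 and 37 member UMIs per nucleus. Restricted to nuclei with at least 1000 UMIs, the sum was 28733 and 26565 CPM and the ratio 0.925, below 1 instead of above it. Among these nuclei the log2 ratios of 57 members ran from -0.79 to 0.49, and 0 members were past 2-fold. Their median was -0.11, beside 0.02 over all genes. Depth thus moved with the ratios, and whether it caused the differences was not tested.

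CP_8, the label with the choroid plexus markers, had the same members at other proportions. Over the 55 members with at least 100 UMIs in CP_6, the CPM in CP_8 was a median of 13.7% of that in CP_6 for control and 16.8% for CKO nuclei, against a median of 70.7% over 5610 genes in the control. Among these, single members spread widely around that median, from 0% for *Cfap58* to 111% for *Cfap20dc* in the control. Below 10% lay 21 of the 55 members in the control (18 in CKO nuclei), beside 600 genes (10.7%). This minimum is set on CP_6 and so leaves out members with few UMIs there, such as *Dnah17*, which was higher in CP_8 (23 UMIs against 6 in the control, 557%, 220 to 1671). With a minimum of 20 control UMIs in both labels together, chosen after seeing the data, the control medians were 15.0% over 57 members and 80.7% over 13253 genes.

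The inner arm chains covered a wide part of this range. *Dnah12* in CP_8 was at 0.208% (0.0996 to 0.382) of its CP_6 level in the control and 0.464% in CKO nuclei, from 10 and 7 UMIs. *Dnah10* (0.326%), *Dnah3* (0.558%), *Dnah1* (1.48%) and *Dnah7a* (2.04%) were likewise near 0 in the control. *Dnah7b* was at 52.4% (48.6 to 56.5) and 72.4%, *Dnah6* at 21.0% and 25.3%, and *Dnah2* at 15.4% and 21.1%. In the outer arm *Dnah5* was at 0.832% and 0.318%, whereas its partner chains *Dnah9* and *Dnah11* were at 19.0% and 18.2% in the control and 24.1% and 25.1% in the CKO library.

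Among central pair genes *Cfap74* was at 50.5% and 39.7%, *Cfap69* at 46.7% and 45.5%, *Cfap47* at 42.7% and 56.5%, and *Cfap54* at 20.1% and 29.4%. *Cfap46* was far lower, at 1.16% and 4.35%, and *Cfap99* at 1.18% and 9.42%. In the tether and ruler group *Cfap44* was at 24.9% and *Cfap43* at 13.6% in the control, and *Cfap100* at 0.193% (0.0398 to 0.566) from 3 UMIs. *Foxj1* was at 8.10% and 12.7%. Within the central pair and the tether and ruler group, too, some members were close to 0 in CP_8 and others at a sizeable part of their CP_6 level.

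**Figure D3:**
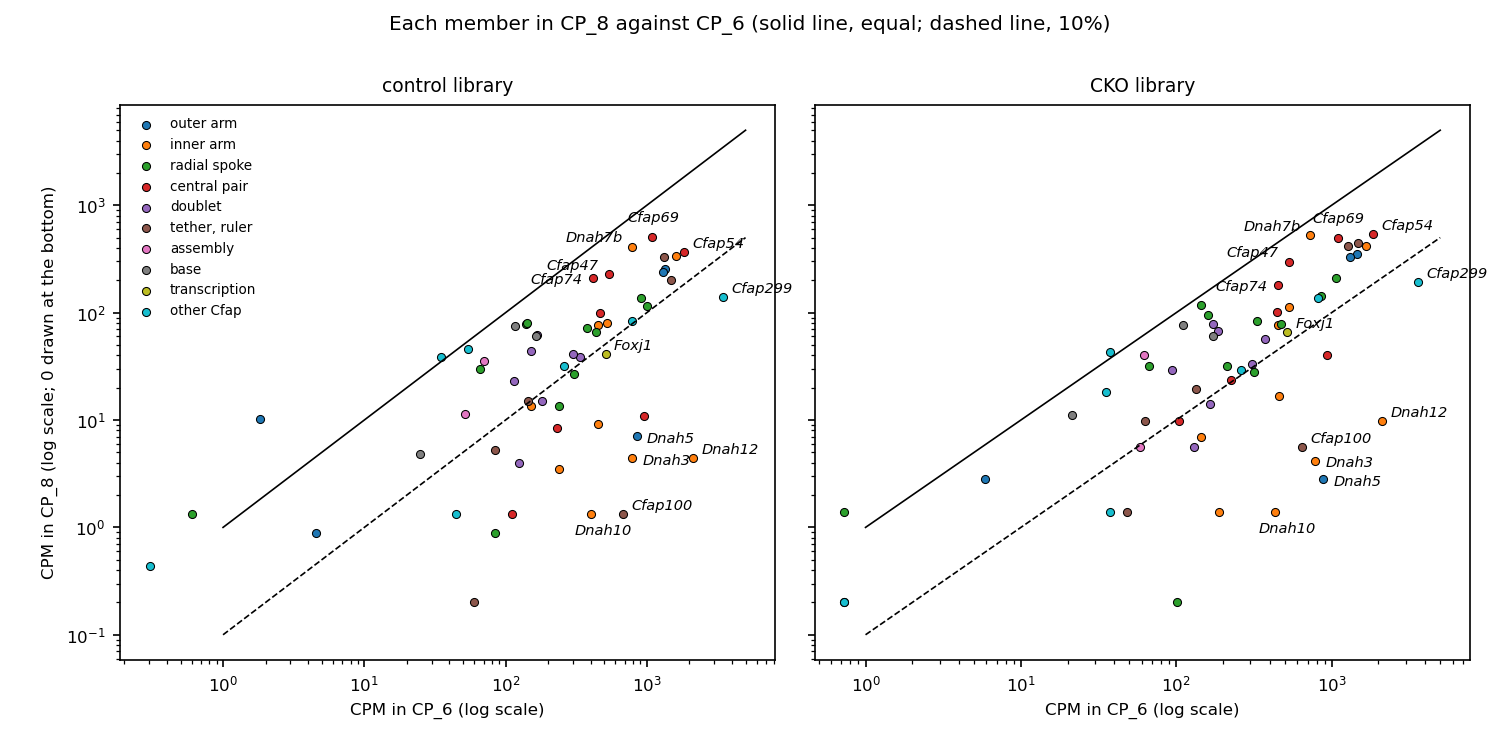
CPM of each member in CP_8 (vertical axis) against CP_6 (horizontal axis), log scales, in the control and the CKO library, coloured by role; the solid line marks equal levels, the dashed line 10%, and members at 0 in CP_8 are drawn at the bottom. *Dnah12*, *Dnah3*, *Dnah10*, *Dnah5* and *Cfap100* lie far under the dashed line at below 1% in both libraries, and *Dnah7b* and *Cfap69* lie above it at 52.4% and 46.7% in the control.

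In CP_8 itself the summed members had a CKO over control ratio of 1.28 (1.24 to 1.33). By role it ran from 0.989 for the arm assembly factors to 1.62 for the tether and ruler group, in which *Cfap43* was at 201 CPM in the control and 444 CPM in the CKO library. The median depth of CP_8 nuclei was 1721 UMIs in the control and 666 UMIs in the CKO library. Among nuclei with at least 1000 UMIs, an alternative chosen after seeing the data, the ratio was 0.823, so the direction of the difference in CP_8 was not the same in deep nuclei. Marker lists of other cell types moved in both directions in CP_8. Ratios were above 1 for ependymal (1.27, 1.09 to 1.47), astrocyte (1.48, 1.34 to 1.63), fibroblast (1.57, 1.22 to 2.02) and oligodendrocyte markers (1.35, 1.04 to 1.74), and for tanycyte markers (1.13, 1.04 to 1.22). They were below 1 for neuron (0.758, 0.701 to 0.819), endothelial (0.713, 0.502 to 0.993) and choroid plexus markers (0.974, 0.963 to 0.985). Their part in the ratio of the members was not tested.

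At the level of nuclei, UMIs of at least 5 different members were in 99.7% of control and 99.6% of CKO nuclei of CP_6, and in 83.4% and 60.5% of CP_8 nuclei. In ECs the shares were 2.51% and 1.80% at median depths of 1347 and 1491 UMIs, close to the 1307 of control CP_6 nuclei. With every nucleus thinned to 1000 UMIs the shares were 96.8% and 94.2% in CP_6, 52.1% and 43.4% in CP_8 and 0.272% and 0% in ECs. Nuclei below that depth were left out, 402 and 394 in CP_6, 207 and 443 in CP_8 and 1005 and 1055 in ECs. The order of the 3 labels was thus the same at equal depth. In deeply sequenced neurons the shares went from 15.2% to 0.108% in control Glut_0 nuclei and from 25.7% to 0.813% in control Glut_21 nuclei.

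For single members in the control library, *Dnah12* had UMIs in 92.9% of CP_6 nuclei, 0.998% of CP_8 nuclei and 0.808% of ECs, so its share in CP_8, whose nuclei are deeper (median 1721 UMIs), was near that of ECs. *Dnah5* had a like pattern with 75.5%, 1.55% and 0.283%. *Dnah9* was in 86.8%, 41.1% and 0.404%, and *Cfap69* in 83.3%, 65.7% and 0.646%. These shares separate members detected in both CP labels from members detected mainly in CP_6, as the CPM values did. *Foxj1* was in 61.2% of CP_6 nuclei, 9.42% of CP_8 nuclei and 0.283% of ECs in the control, and in 48.8%, 7.06% and 0.0679% in the CKO library, where CP_6 and CP_8 nuclei were shallower. *Cfap97*, by contrast, was in 12.8%, 10.8% and 10.5% of control nuclei of the 3 labels, and its UMIs set none of them apart.

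Other genes of the motile cilium, from lists that hold no member (*Hydin* and *Spag17* are also among the ependymal markers), lay mostly in the same label; a list of other doublet proteins is not given. Of the dynein arm chains and docking genes with at least 100 UMIs 9 of 9 were highest in CP_6 in both libraries, of the arm preassembly factors 7 of 7, of the other central pair and spoke genes 14 of 15, and of the nexin-dynein regulatory complex and ruler 7 of 9. Their sums in CP_6 were 2907, 549, 9718 and 2129 CPM in the control and 2924, 561, 9699 and 2071 CPM in the CKO library. The docking gene *Odad2*, the preassembly gene *Spag1*, the central pair gene *Spef2* and the regulatory complex gene *Drc3* were the most abundant of their lists, at 725, 133, 1975 and 451 CPM in the control. The ratios of these 4 lists ran from 0.973 to 1.02 in CP_6. In CP_8 they were above 1, up to 1.35, with an interval that includes 1 for the preassembly factors (0.928 to 1.62).

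The transcription factors of the program divided between the labels, with 3 of 5 highest in CP_6 and 2 highest in CP_8. The summed ratio of all 7 on the list was below 1 in both, at 0.947 (0.905 to 0.991) in CP_6 and 0.948 (0.910 to 0.988) in CP_8. *Gmnc*, which acts at the start of multiciliated cell formation, was at 2574 and 2264 CPM in CP_8 against 131 and 55.6 CPM in CP_6, and *Rfx3*, a factor that binds X-box motifs of cilia genes, at 1783 and 1813 CPM against 1380.3 and 1371 CPM. All 7 genes together were at 4488 and 4255 CPM in CP_8, so the lower sum there rests on *Gmnc*. In CP_6 they were at 1991 and 1885 CPM, and *Gmnc* held much of that difference. The summed ratios are thus not a shift of the list as a whole. *Myb*, which acts after *Gmnc* in the making of multiciliated cells, was at 145 and 146 CPM in CP_6 and had 1 and 2 UMIs in CP_8. *Foxj1*, a member, was likewise higher in CP_6. *Mcidas* (2 and 1 UMIs) and *Ccno* (11 and 3 UMIs) were near 0 in CP_6. Of the intraflagellar transport genes, which serve cilia in general, 13 of 21 were highest in CP_6 (sum 4287 and 4269 CPM there), and of the genes of the photoreceptor cilium 20 of 29 (5131 and 5140 CPM).

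Since RFX factors and *Foxj1* are known to act through short motifs, the 250 bases before the start of the canonical GENCODE vM39 transcript were searched on both strands in GRCm39. An X-box, spelled here as GTNNCC, then 0 to 3 bases, then GGNNAC, was in 6 of 60 member windows (10.0%) and in 634 of 21751 windows of protein-coding genes (2.91%). The shorter GTTGCC, which overlaps some of these, was in 17 (28.3%) and 2054 (9.44%), and the forkhead core TGTTTAC in 2 (3.33%) and 592 (2.72%). A match is a description of the letters and shows no binding. The match of *Cfap43* is shown for a member among the 10 with the highest CPM in CP_6, and that of *Cfap77* for a member highest in another label. Capitals mark the X-box, which ends 39 and 210 bases before the start, in chr19:47825840-47825892 and chr2:28945281-28945334, both on the minus strand.
Cfap43: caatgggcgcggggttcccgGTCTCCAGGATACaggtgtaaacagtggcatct
Cfap77: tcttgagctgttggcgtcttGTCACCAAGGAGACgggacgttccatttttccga

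The same symbols were followed into rods and cones of the retina. The control library held 6621 rods with 8604043 UMIs and 411 cones with 1085118 UMIs, and the 10 CKO libraries held 1891 to 10241 rods and 112 to 805 cones. The sum of the members in rods was 1852 CPM in the control and 1920.1 CPM at the lowest, 2042 at the median and 2253 at the highest of the CKO libraries. In cones it was 2155 CPM in the control and 2072, 2293 and 2488 CPM in the CKO libraries. The control thus lay below every CKO library in rods and among them in cones, and no p is given for a sum over the members. Both cell types were far below CP_6 of the brain and above the other retinal labels measured in 11 libraries, whose control sums ran from 751 CPM in RBC to 1083 CPM in MG.

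A few members carried most of the sum in rods. *Cfap61*, the spoke gene, was at 435 CPM in the control and 424, 454 and 560.2 CPM (lowest, median and highest) in the CKO libraries. *Dnah9*, the outer arm chain, was at 339.8 CPM in the control and 335, 415 and 443 CPM in the CKO libraries, and the inner arm chain *Dnah7b* at 139 CPM and 127, 147 and 195 CPM. For these 3 members the control lay within the range of the CKO libraries. *Cfap97* was at 156 CPM in the control and 81.1, 119 and 177 CPM in the CKO libraries, and the central pair gene *Cfap69* at 114 CPM and 109, 141 and 149 CPM, again with the control within the range.

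*Dnah9*, *Cfap69* and *Cfap61* were thus high in CP_6 and in rods, whereas other members of CP_6 were near 0 in rods. *Dnah12* had 9 UMIs in control rods (1.05 CPM) and 0.632 to 2.61 CPM in the CKO libraries, and *Dnah5* had 11 UMIs (1.28 CPM) and 0 to 2.09 CPM. *Foxj1* also had 11 UMIs in control rods (1.28 CPM), with 0 CPM at the lowest, 1.32 at the median and 3.50 at the highest of the CKO libraries. Control and CKO values overlapped for each of the 3. In control cones *Foxj1* had 5 UMIs (4.61 CPM), and in the CKO libraries it was at 0, 1.24 and 6.27 CPM.

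The genotypes were compared with edgeR's quasi-likelihood test on UMIs summed per library, with batch and kit in the model and p adjusted by Benjamini and Hochberg over all genes tested. The single control was taken to vary as the CKO libraries do, and batch 2 is represented by CKO 5 alone. The only control is in batch 1, so with batch in the model the genotype coefficient rests on the control against CKO 1 to 3. In rods 0 of 48 members with at least 50 UMIs had an adjusted p under 0.05, beside 9 of 14045 genes (0.0641%), and in cones 0 of 29 members, beside 6 of 10381 genes (0.0578%). At an unadjusted p under 0.05 the counts by edgeR were 3 members and 549 genes in rods and 1 member and 465 genes in cones. DESeq2 likewise called 0 members in either cell type, with 3 and 1 at an unadjusted p under 0.05. The median log2 difference (CKO minus control) of the members was 0.10 in rods and 0.01 in cones, beside 0.00 and 0.01 over all genes. The standard error of a member's log2 difference had a median of 0.63 in rods and 0.49 in cones. Differences of about that size would be missed, so the absence of calls does not show equal levels.

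The 3 rod members with an unadjusted p under 0.05 were *Cfap77*, *Cfap99* and *Dnah6*. *Cfap77* was at 12.4 CPM in control rods, at 0 to 4.88 CPM in the 6 CKO libraries of the v4.0 PLUS kit and at 36.2 to 53.6 CPM in the 4 of the v5.0 kit. The control, itself a v4.0 PLUS library, thus lay between the CKO libraries of the kits. For the genotypes edgeR gave a log2 difference of -1.73 with a standard error of 0.45 and an adjusted p of 0.655. *Cfap99*, a central pair gene, was at 15.6 CPM in control rods and at 16.4, 22.4 and 37.0 CPM in the CKO libraries, above the control in all 10 (log2 0.76, standard error 0.27, edgeR adjusted p 1.00). *Dnah6* had 5 UMIs in control rods (0.581 CPM) and 1.03, 2.04 and 4.67 CPM in the CKO libraries, again above in all 10, although the log2 values rest on CKO 1 to 3 (log2 2.28, standard error 0.84, edgeR adjusted p 1.00). In cones the member was *Cfap99*, from 3 UMIs in the control (log2 2.46, standard error 1.13, edgeR adjusted p 1.00).

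The kit set more members apart than the genotype did, in a comparison added after seeing the data. Its coefficient rests on batch 3, where CKO 8 to 11 (v5.0) had median depths of 2717 to 4041 UMIs and CKO 6 and 7 (v4.0 PLUS) of 1183 and 1412, so kit and depth cannot be told apart. In rods edgeR called 14 of 48 members, beside 33.4% of all genes, and in cones 5 of 29, beside 14.6%. Without the genes at 0 in batch 3, *Cfap418* in both cell types and *Cfap91* in rods among them, these were 14 of 46 members (30.4%) beside 33.9% in rods and 5 of 28 (17.9%) beside 14.8% in cones. The share of members was thus near that of all genes in both cell types.

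Of the 14 rod members, *Cfap77*, *Dnah8*, *Dnah10* and *Foxj1* were higher with v5.0 and 10 were lower, beside 2621 higher and 2074 lower over all genes. *Foxj1* was at 0 CPM in CKO 6 and 7 and at 1.32 to 2.15 CPM in CKO 8 to 11. The other v4.0 PLUS libraries overlapped CKO 8 to 11, from 0.618 CPM in CKO 5 to 3.50 CPM in CKO 2. *Cfap77* was at 0.364 and 0 CPM in rods of CKO 6 and 7 and at 36.2 to 53.6 CPM in CKO 8 to 11, without overlap (log2 7.49, standard error 0.71, edgeR adjusted p 0.000111). In cones the same gene was at 2.27 and 0 CPM in CKO 6 and 7 and at 45.3 to 78.3 CPM in CKO 8 to 11 (log2 5.51, standard error 0.84, edgeR adjusted p 0.000263). *Dnah8* in rods was at 3.65 and 0.352 CPM and at 8.77 to 22.5 CPM, likewise apart. *Cfap97* was at 125 and 159.5 CPM and at 81.1 to 93.5 CPM, the lower values being those of v5.0 (log2 -1.02, standard error 0.14, edgeR adjusted p 0.000623). The fit gave *Dnah9* a log2 of -0.31 (edgeR adjusted p 0.0426), although its CPM in CKO 6 and 7 (397 and 434) overlapped that in CKO 8 to 11 (411 to 443).

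Rods and cones of the same libraries could be set side by side, as a description, since the labels were drawn from all genes. The log2 ratio of the summed members, rods minus cones, was -0.18 with a standard deviation of 0.10 over 11 libraries, from -0.34 to 0.02. Cones were higher in 10 of the 11, the exception being CKO 5. The median over all genes was -0.15, and without *Dnah9* the sum turned to 0.19, so the direction of the sum rests on this member.

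Of the 29 members with at least 50 UMIs in each cell type, 4 were higher in rods in all 11 libraries, beside 8.82% of 10130 genes, and 4 were higher in cones in all 11, beside 10.6%. The 4 of cones were 3 dynein heavy chains and a central pair gene. Of these chains, *Dnah7b* and *Dnah7c* have transcripts that share 52.3% and 52.8% of their 31-base words. The division of UMIs between them is uncertain, so they may not be separate observations. *Dnah9* was at 868 CPM in cones and 403 CPM in rods (means, with standard deviations of 73.7 and 38.1), *Dnah7b* at 251 and 148 CPM (30.4 and 18.3) and *Dnah7c* at 32.7 and 14.9 CPM (6.69 and 3.45). The libraries did not overlap between the cell types for *Dnah9* and *Dnah7b*, and for *Dnah7c* the highest rod value and the lowest cone value were both 21.9 CPM. *Cfap47* was at 11.8 and 1.38 CPM (6.89 and 1.21), from 104 UMIs in cones and 96 in rods.

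The 4 members higher in rods were spoke and central pair genes. *Cfap61* was at 466 CPM in rods and 309.7 CPM in cones (standard deviations 40.8 and 38.7), and *Cfap206*, another protein of the spoke base, at 73.1 and 34.1 CPM (14.1 and 12.1). *Cfap69* was at 133 and 83.3 CPM (14.3 and 18.0) and *Cfap46* at 33.8 and 19.8 CPM (4.44 and 6.13). By role, the log2 ratio of rods minus cones was 0.53 for the spoke group and 0.46 for the central pair, above 0 in 11 of 11 libraries, and -1.09 for the outer arm and -0.75 for the inner arm, below 0 in 11 of 11. The list of other arm chains and docking genes, which holds no member, was instead at 0.49, above 0 in 11 of 11 libraries. The list of other central pair and spoke genes was at 0.60, likewise above 0 in 11 of 11. *Cfap61*, *Dnah9* and *Dnah7b* have most of the UMIs of the spoke, outer arm and inner arm sums. Other members of the spoke and central pair groups went the other way, with *Rsph10b* higher in cones in 10 of 11 libraries, *Rsph3b* in 9 and *Cfap47* in 11. Rod markers, a list of 8, summed to 19411 CPM in control rods and 9027 CPM in control cones, and cone markers to 188 and 11976 CPM. The part of rod transcripts in the values of cones was not tested.

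**Figure D4:**
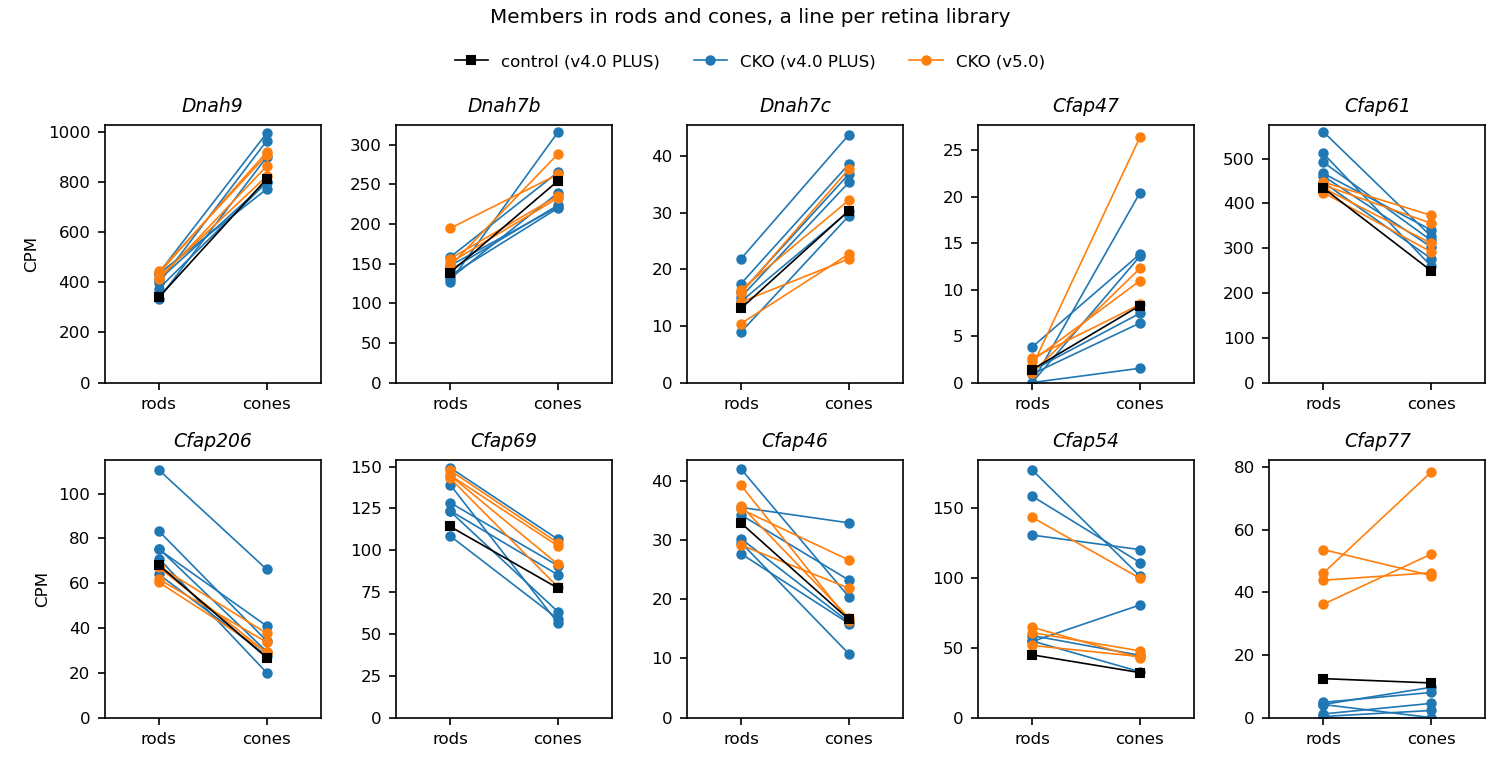
CPM (vertical axis) of 10 members in rods and in cones (horizontal axis), with a line for each of the 11 retina libraries, black squares for the control, blue for CKO with v4.0 PLUS and orange for CKO with v5.0. *Dnah9* slopes up to cones in all 11 libraries, *Cfap61* slopes down, and *Cfap77* is high in the 4 orange libraries.

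Other cilia genes were followed in the same fits. Of 31 photoreceptor cilium genes edgeR called 0 between the genotypes in rods and in cones, with 3 and 2 at an unadjusted p under 0.05, and of 21 intraflagellar transport genes 0, with 0 and 2. In rods the ependymal markers summed to 21.6 CPM in the control and at the median of the CKO libraries, and the intraflagellar transport genes to 2297 and 2131 CPM.

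Outside rods and cones, *Dnah11* stood out in Gly_AC, whereas *Dnah7b* and *Cfap299* were spread over more retinal labels. *Dnah11* was at a mean of 198 CPM in Gly_AC and at a mean of no more than 26.0 CPM in any other retinal label. The lowest library of Gly_AC was at 162 CPM and the highest of any other label, in Immune_cells, at 58.4 CPM. *Dnah7b*, at a mean of 181 CPM in MG, was higher in cones (251 CPM) and was also at 148 CPM in rods and 123 CPM in HC. *Cfap299*, first in CP_6 of the brain, was at 31.5 CPM in GABA_AC, 18.9 CPM in RGC, 14.8 CPM in Immune_cells and 4.73 CPM in rods.

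*Cfap54*, the central pair gene, differed between retina libraries, and it was singled out after its values were seen, so no test is given. In rods it was at 159, 178, 131 and 144 CPM in CKO 2, 5, 6 and 10 and at 45.0 to 64.8 CPM in the 7 other libraries, with the control lowest. Besides rods, by which they were picked, the same 4 libraries lay above all others in 6 of the 7 retinal labels with at least 100 UMIs of the gene, the exception being GABA_AC, where CKO 5 was at 16.0 CPM and others reached 19.1 CPM. These libraries come from 3 batches and both kits. In MG, for example, they were at 148 to 223 CPM and the others at 47.9 to 104 CPM.

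The brain libraries differed in *Cfap54* as well, outside CP_6. Of the 14 brain labels with at least 20 UMIs, 11 had a CKO over control interval above 1 and 0 had one below. In Glut_0 it was at 81.8 CPM in the control and 157 CPM in the CKO library (ratio 1.92, 1.76 to 2.09), and in CP_8 the ratio was 1.47 (1.30 to 1.66). In CP_6, where the gene was highest, the ratio was 1.00 (0.959 to 1.05). The interval also included 1 in ECs (ratio 0.706, 0.331 to 1.48) and in Glut_21 (1.67, 0.871 to 3.25). The difference between the libraries was thus present in most labels, but not in ECs or in the label with the most UMIs of the gene. The same count over all genes is not given.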

How the data were processed

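Nuclei of 2 brain and 12 retina libraries were measured with PIPseq. The deposited values are unscaled UMI counts, one matrix for brain and one for retina, for which the authors report alignment, removal of background and doublets, manual removal of mixed nuclei and, in CKO retina libraries 4 and 5, of clusters with multiple nuclei; cell type, batch and kit are those the authors gave. The labels name the build mm10 and Seurat, whereas the methods name a GRCm39 index. The members and lists were chosen with earlier results of these data known.

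UMIs were summed per label and library and divided by their total (CPM). Rods and cones were tested with edgeR 4.0.16 in R 4.3.3 (TMM scaling, quasi-likelihood, genotype, batch and kit, libraries with at least 50 nuclei of the type, genes with at least 50 UMIs, adjusted p under 0.05), with DESeq2 1.42.0 as an alternative, and the pipeline was tested on simulated data. Other values were computed in Python 3.11.15 with numpy 2.4.6, scipy 1.17.1 and pandas 2.3.3. Gene spans, overlaps and upstream windows come from GENCODE vM39 on GRCm39; 38 members are overlapped by a gene on the other strand and 3 on the same strand. Genes were named by a rule: *Foxj1*; the 10 members with the highest CPM in CP_6; the 5 highest and 5 lowest CKO over control ratios there; the 10 whose UMIs lie least in CP_6; the 10 highest in rods and in cones; those past a threshold and the 5 of smallest p; and the 5 highest and lowest rod over cone ratios. Other members named were chosen after their values were seen. The sample table enters days of 4-hydroxytamoxifen for the controls too, which the labels do not state, and no comparison used these entries. CKO retina library 4 was left out of the rod and cone comparisons for its low number of nuclei. No paired analysis was possible because each library is of 1 genotype and no pairing is given.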

Additional observations from a re-analysis of the deposited data

Results flagged for a closer look

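Among 67 groups of 10 CKO retina libraries examined for a library far from the others, 8 had one. The libraries come from several batches and both kits, and how many groups would have one by chance was not tested. In rods, CKO 7 was far from the others for *Cfap20* at 23.2 CPM (nearest other library 50.1), for *Cfap206* at 111 CPM (83.3) and for *Cfap410* at 7.75 CPM (19.1). Also in rods, CKO 2 stood apart for *Dnah6* at 4.67 CPM (2.58) and CKO 10 for *Dnah7b* at 195 CPM (158). In cones, CKO 7 stood apart for *Cfap206* at 66.2 CPM (40.9), CKO 6 for *Cfap298* at 34.1 CPM (15.4) and CKO 10 for *Cfap410* at 39.9 CPM (23.1). CKO 7 accounts for 4 of the 8, with *Cfap206* high in both of its cell types.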

How the results depend on the processing

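With the mean over nuclei of each nucleus's CPM, the members of CP_6 summed to 47021 CPM in the control and 47007 CPM in the CKO library; with nuclei of at least 1000 UMIs to 28733 and 26565 CPM; and without *Cfap299*, which removes its own UMIs, to 27628 and 27684 CPM. The CKO over control ratio was 0.976 with TMM factors and 0.925 with nuclei of at least 1000 UMIs. In CP_8, under alternatives chosen after seeing the data, it was 1.18 with TMM factors, 1.40 as a mean over nuclei and 0.823 with nuclei of at least 1000 UMIs; the cause was not tested. Without *Dnah9* the log2 ratio of rods minus cones was 0.19, by removal of the member with the highest level in cones, and under 6 other alternatives it ran from -0.20 to -0.11.

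Members past 2-fold in CP_6 were 0 under 3 alternatives. Members called between the genotypes were 0 under 11 alternatives each in rods and cones, DESeq2 included, where the smallest adjusted p of a member in rods was 0.0586 (0.0586 to 1.00 over the alternatives). Of the ratios of named members in CP_6, 76 kept within their interval and 11 moved, and of their rod over cone values 26 and 4.

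There was 1 control library for each tissue and 1 CKO library for the brain, so brain differences belong to 2 libraries. Median depths of CP_6 nuclei, 1307 and 869 UMIs, limit what single nuclei show, and members with few UMIs have wide intervals, as *Dnah8* in CP_6 (ratio 0.473 to 3.24). Batch 3 gives no level for *Cfap20dc*, *Cfap91* and *Cfap418*.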

Other observations

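Some labels held too few nuclei for the comparisons. The CKO brain library had 11 microglia, with 11 member UMIs (752 CPM), and 22 pericytes, with 1 member UMI. Retinal astrocytes reached 50 nuclei in CKO 5 alone, where the members summed to 901 CPM.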
